A study of Mus musculus with 12 samples.

Results

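Protocadherins are adhesion proteins of the cadherin superfamily, and their genes were compared between hippocampi of 2 mouse lines. Members were the genes with a symbol starting with Pcdh on a transcript cluster (the probe group that measures a transcript) assigned to a single gene, taking the cluster with the highest mean where a gene had several. This gave 34 genes from 36 clusters, among 19939 genes with such a cluster in the whole series. Of the 34 genes, 22 were clustered protocadherins of the beta group and 12 were non-clustered. A further cluster covered 14 Pcdha genes at once and is given apart, and gamma genes (Pcdhg) were not analysed here.

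Madison (MSN) mice are an inbred line with a manic phenotype, derived from outbred hsd:ICR stock. Their ancestors were selected for wheel running, then for maternal defense, and were later bred without selection. The ICR mice are the outbred ancestral stock and served as the control. Hippocampi of 6 adult male MSN mice and 6 adult male ICR mice were macrodissected, and RNA of each mouse went on its own array. MSN stands for a single inbred line, so effects of the selection, of the inbreeding and of genetic drift cannot be told apart. Values are array intensities, and all statistics used log2(intensity + 16), where the added 16 damps noise of dim clusters. The authors could not exclude that sequence changes at probe binding sites affected some genes, and this was not tested here.

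Clustered protocadherins lie as alpha, beta and gamma gene arrays at a single locus, and each neuron switches on its own few members by choosing among their promoters. The proteins recognise identical copies on other membranes, which lets branches of the same neuron avoid each other. Alpha and gamma genes splice a variable first exon to shared constant exons, whereas a beta gene is a single large exon with no shared end. Non-clustered members include the delta-1 and delta-2 groups, which differ in their extracellular repeats and cytoplasmic motifs and act in axon growth, synapse formation and cell sorting.

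None of the 34 protocadherin genes passed the test between MSN and ICR mice (limma, Benjamini-Hochberg adjusted p under 0.05 over 23410 clusters). Over all those clusters, 0.777% passed (182 clusters, 71 higher and 111 lower in MSN). At an unadjusted p under 0.05, 6 of the 34 genes differed (17.6%), against 12.7% of all clusters. Of these 6, 2 genes were higher in MSN, where 5.18% of all clusters were, and 4 were lower in MSN, where 7.5% of all clusters were. Only Pcdh17 had no overlap between the 6 MSN and the 6 ICR values, which is 2.94% of the members against 1.44% of all clusters. The 95% interval lay inside plus or minus 0.5 on the log2 scale for each of the 34 genes, as it did for 23013 of all 23410 clusters. The median absolute log2 fold change was 0.053 for the 34 genes and 0.047 over all clusters. The median log2 fold change of MSN over ICR was 0.00 for the 22 beta genes, -0.02 for the 12 non-clustered genes and -0.01 over all clusters with a gene. In a tissue piece, fewer cells of a type and less RNA per cell cannot be told apart.

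**Figure D1:**
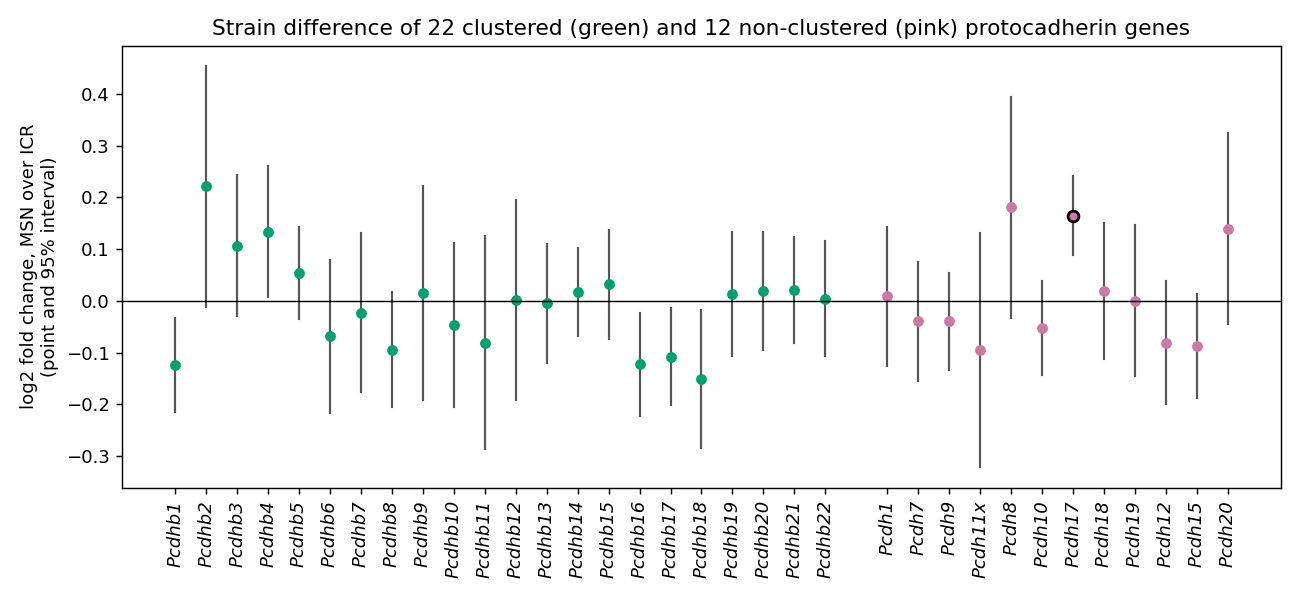
Log2 fold change of MSN over ICR (vertical axis) for the 22 beta genes in chromosomal order and the 12 non-clustered genes, each point with its 95% interval from limma (n = 6 mice per strain) and a black ring where the strains did not overlap. The points lie between -0.15 and 0.22, and the ringed gene is Pcdh17 at 0.16.

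Pcdh17, a delta-2 protocadherin known for roles in axon extension and presynaptic assembly, came closest to the threshold. Its intensity was 1393, 1478, 1512, 1470, 1540 and 1421 in MSN mice 1 to 6, against 1277, 1393, 1279, 1326, 1287 and 1293 in ICR mice 1 to 6. The lowest MSN mouse stood 0.71 units above the highest ICR mouse, so that the strains separated by no more than that. The means were 1469 ± 54.6 in MSN mice and 1309 ± 44.7 in ICR mice (SD, n = 6 each). This gave a log2 fold change of 0.16 (SE 0.0357, unadjusted p = 0.000412) with a limma adjusted p of 0.0513. The exact two-sided permutation test over the 12 mice gave p = 0.00216, the smallest that 6 against 6 allows. Without MSN replicate 1 the adjusted p was 0.0457, and without ICR replicate 2 it was 0.0323, so the side of the threshold rested on single arrays. It was also under 0.05 in 6 of 13 other settings, of which 11 refitted the data and the rest reused the main fit.

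Pcdh8 and Pcdh20 also had positive fold changes but did not pass the test. Pcdh8, an activity-induced delta-2 protocadherin that acts on N-cadherin at synapses, had a lowest, median and highest value of 576, 620 and 872 in MSN mice, against 448, 596 and 645 in ICR mice. The high value was MSN 5, the low value was ICR 3, and the strains overlapped. Its log2 fold change was 0.18 (SE 0.0994, adjusted p = 0.485), and it was 0.10 without MSN replicate 5 and 0.11 without ICR replicate 3. Pcdh20 had 1510, 1579 and 1733 (lowest, median and highest) in MSN mice, against 1146, 1463 and 1763 in ICR mice. The MSN values lay inside the ICR range, which ran wider in both directions. Its log2 fold change was 0.14 (SE 0.0860, adjusted p = 0.541), and it was 0.07 without ICR replicate 3.

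Pcdh8, Pcdh17 and Pcdh20 lie on chromosome 14, and the bases upstream of their starts are shown because these 3 genes had the highest fold changes among the non-clustered members. The sequences are the 250 bases before the start in RefSeq (GRCm38.p6), read along the strand of the gene. Capitals mark a GC box (GGGCGG, or CCGCCC for the other strand), the site known to bind Sp1-type factors.
Pcdh17: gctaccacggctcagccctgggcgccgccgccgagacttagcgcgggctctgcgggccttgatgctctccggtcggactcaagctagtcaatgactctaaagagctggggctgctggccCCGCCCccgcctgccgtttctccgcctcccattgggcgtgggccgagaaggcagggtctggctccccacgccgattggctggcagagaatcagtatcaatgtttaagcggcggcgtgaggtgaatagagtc
Pcdh8: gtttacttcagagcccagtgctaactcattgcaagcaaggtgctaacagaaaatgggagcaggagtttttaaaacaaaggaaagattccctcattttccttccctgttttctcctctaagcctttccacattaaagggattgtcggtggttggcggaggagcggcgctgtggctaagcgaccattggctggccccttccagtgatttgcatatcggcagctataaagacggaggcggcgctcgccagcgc
Pcdh20: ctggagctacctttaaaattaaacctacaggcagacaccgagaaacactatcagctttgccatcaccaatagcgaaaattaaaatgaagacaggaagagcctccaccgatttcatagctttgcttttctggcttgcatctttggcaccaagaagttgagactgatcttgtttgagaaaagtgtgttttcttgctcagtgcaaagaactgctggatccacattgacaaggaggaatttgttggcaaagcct
These windows are chr14:84443313-84443562 (plus strand) for Pcdh17, chr14:79771313-79771562 (minus strand) for Pcdh8 and chr14:88471397-88471646 (minus strand) for Pcdh20.

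Promoter windows were matched for 9 of the 34 genes. The windows of Pcdh17, Pcdh8 and Pcdh20 held 21, 11 and 3 CG dinucleotides, where the median over 32851 RefSeq windows of the same length was 6. Pcdh17 held a GC box, which 32.7% of all windows hold on either strand, and Pcdh8 and Pcdh20 held none. Pcdh8 held a TATA box (TATAAA), present in 12.4% of all windows. A CCAAT box (CCAAT, 33.8% of all windows) was present in all 3 windows. The motif CGCT, the core letters of the conserved element in most clustered protocadherin promoters, was found at 2, 5 and 1 places in Pcdh17, Pcdh8 and Pcdh20, and in 55.7% of all windows. These matches describe the letters only, and none of the 3 windows held the E-box CACGTG (6.02% of all windows). Motifs were searched on both strands, and no letters of these motifs contain another of them.

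The chromosome 14 genes were also read with the genes between them. Gm10845, Olfm4, Diaph3 and Tdrd3, which lie between Pcdh8 and Pcdh20 beside Pcdh17, had log2 fold changes of 0.01, 0.09, 0.12 and 0.02. None of these 4 passed the test, and Diaph3, a formin that builds actin filaments, had an unadjusted p of 0.0280 (adjusted p = 0.318). Pcdh9 follows Pcdh20 on the chromosome and had a log2 fold change of -0.04. Of the 20 genes nearest to Pcdh17, 10 on each side, 0 passed the test by limma and 3 had an unadjusted p under 0.05, which is 15% against 12.7% of all clusters (Diaph3, with Elf1 at -0.09 and Bora at -0.14). The 20 genes include the members Pcdh8, Pcdh9 and Pcdh20, so they are not a set apart from the family. The median log2 fold change of the 20 was -0.02, against -0.01 over all clusters with a gene.

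Of the other delta-2 genes, Pcdh10, known for roles in axon growth and synapse elimination, had 1628, 1703 and 1829 (lowest, median and highest) in MSN mice, against 1625, 1786 and 1922 in ICR mice. The MSN range lay inside the ICR range, with a log2 fold change of -0.05 (95% interval -0.14 to 0.04) that was -0.03 without ICR replicate 3. Pcdh18 had 189, 221 and 239 in MSN mice, against 193, 223 and 234 in ICR mice. Its strains overlapped at a log2 fold change of 0.02 (-0.11 to 0.15), and at -0.01 without ICR replicate 3. Pcdh19, an X-linked gene whose human counterpart is mutated in an epilepsy of girls, had 1099, 1175 and 1237 in MSN mice, against 950, 1154 and 1320 in ICR mice. Its MSN values lay within the ICR range, at a log2 fold change of 0.00 (-0.15 to 0.15) that was -0.06 without ICR replicate 3.

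The delta-1 genes, whose cytoplasmic tails carry a motif that binds protein phosphatase 1, showed no difference past the test either. Pcdh1, also known from airway epithelium, had 1176, 1264 and 1319 (lowest, median and highest) in MSN mice, against 1021, 1293 and 1393 in ICR mice. Pcdh7 had 1090, 1153 and 1306 in MSN mice, against 1122, 1174 and 1373 in ICR mice. For Pcdh9, expressed widely in forebrain neurons, the values were 3236, 3332 and 3463 in MSN mice, against 3185, 3415 and 3712 in ICR mice. The ranges of these 3 genes overlapped, and the log2 fold changes were 0.01 (95% interval -0.13 to 0.14), -0.04 (-0.15 to 0.08) and -0.04 (-0.13 to 0.05). With any array left out they ran from -0.05 to 0.04 in Pcdh1, from -0.0711 to -0.00132 in Pcdh7 and from -0.06 to -0.02 in Pcdh9. X-linked Pcdh11x had the largest SD among ICR mice of the 34 genes (0.130 in MSN mice and 0.266 in ICR mice, log2 scale), with 694, 820 and 917 in MSN mice, against 650, 906 and 1127 in ICR mice. ICR 2 was its lowest mouse and ICR 3 its highest. Its log2 fold change was -0.10 (-0.32 to 0.13), and it was -0.18 without ICR replicate 2 and -0.02 without ICR replicate 3.

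Pcdh12, known from vascular endothelium and placenta, had 371, 430 and 466 (lowest, median and highest) in MSN mice, against 416, 469 and 473 in ICR mice. The log2 fold change was -0.08 (95% interval -0.20 to 0.04), while the 7 endothelial and pericyte markers had a median of 0.06 with 0 past the test (limma) and 0 at an unadjusted p under 0.05. Without MSN replicate 1, its lowest mouse, Pcdh12 was at -0.04. Pcdh15, part of the tip links of inner ear hair cells, had 679, 733 and 770 in MSN mice, against 696, 774 and 835 in ICR mice. Here all 6 MSN mice lay below the ICR median, at a log2 fold change of -0.09 (-0.19 to 0.01, adjusted p = 0.473). Pcdh15 and Pcdh9 each had a dimmer second cluster, with log2 fold changes of -0.03 and -0.05 that had the same sign as the first.

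**Figure D2:**
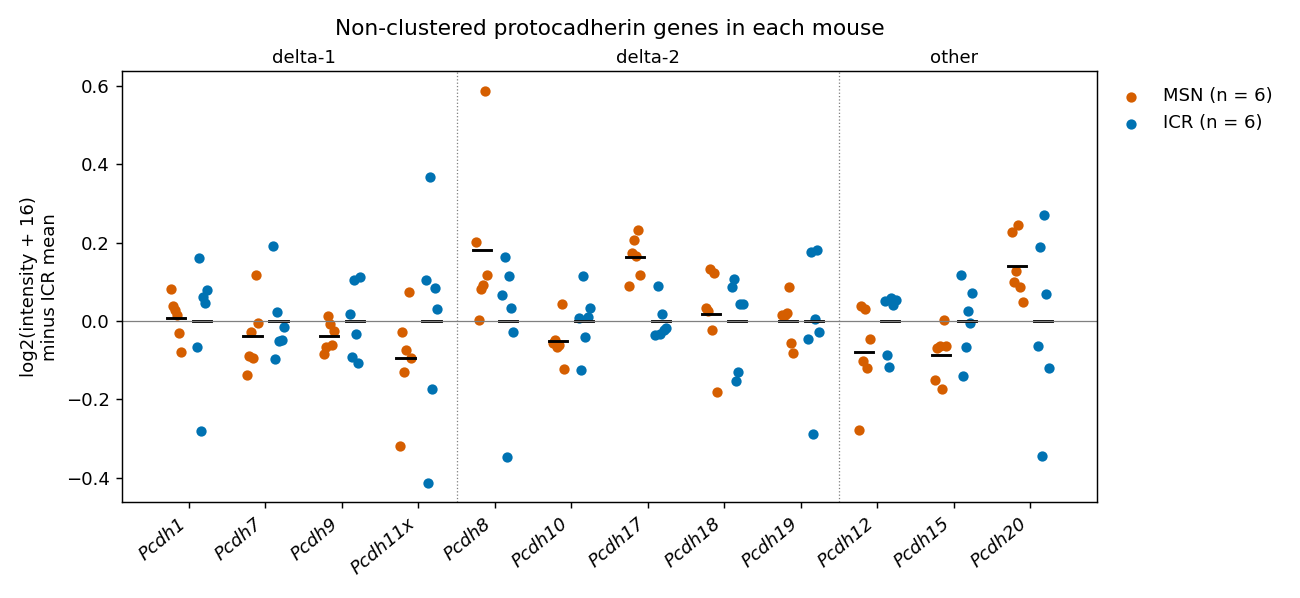
Log2(intensity + 16) of the 12 non-clustered genes in each mouse, minus the ICR mean of the gene (vertical axis), with MSN mice left (orange) and ICR mice right (blue) and the strain mean as a bar (n = 6 each). Pcdh17 is the gene whose strains do not overlap, MSN 5 stands apart in Pcdh8, and the ICR points of Pcdh1, Pcdh11x, Pcdh19 and Pcdh20 spread more widely than the MSN points.

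Among non-clustered genes the spread was larger in the outbred ICR mice for 8 of 12, MSN having the larger SD for 4. The median SD of log2 values was 0.0724 in MSN mice and 0.107 in ICR mice, against 0.0862 and 0.0853 over all genes, of which 49.5% had the larger SD in MSN. All 4 delta-1 genes had the smaller SD in MSN mice. The SDs were 0.0569 in MSN mice and 0.156 in ICR mice for Pcdh1, 0.0603 and 0.173 for Pcdh19, and 0.0796 and 0.224 for Pcdh20. ICR 3 was the lowest ICR mouse in 6 of the 12 genes (Pcdh1, Pcdh8, Pcdh12, Pcdh18, Pcdh19 and Pcdh20) and the highest in Pcdh10 and Pcdh11x. ICR 2 was the highest ICR mouse in Pcdh1, Pcdh8, Pcdh17 and Pcdh18 and the lowest in Pcdh7, Pcdh10, Pcdh11x and Pcdh15. Over all 19939 genes, ICR 3 was the lowest ICR mouse in 4819 and the highest in 3299. ICR 2 was the highest ICR mouse in 4976 of these and the lowest in 2693. In ICR 3, the 8 markers of dentate and CA neurons averaged -0.27 from the ICR mean and were all below it. Of the 5 markers of neighbouring thalamus, 2 were above the ICR mean in ICR 3, and Zic1 stood at 2365 there, against 679 to 1105 in the other ICR mice. In ICR 2 all 7 choroid plexus and ependyma markers were the highest of the ICR mice, with a median deviation of 1.19 from the ICR mean on the log2 scale. The dentate and CA markers averaged 0.13, 0.12 and 0.11 above the ICR mean in ICR 2, ICR 4 and ICR 5. The part of dissected tissue in these spreads was not tested.

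**Figure D3:**
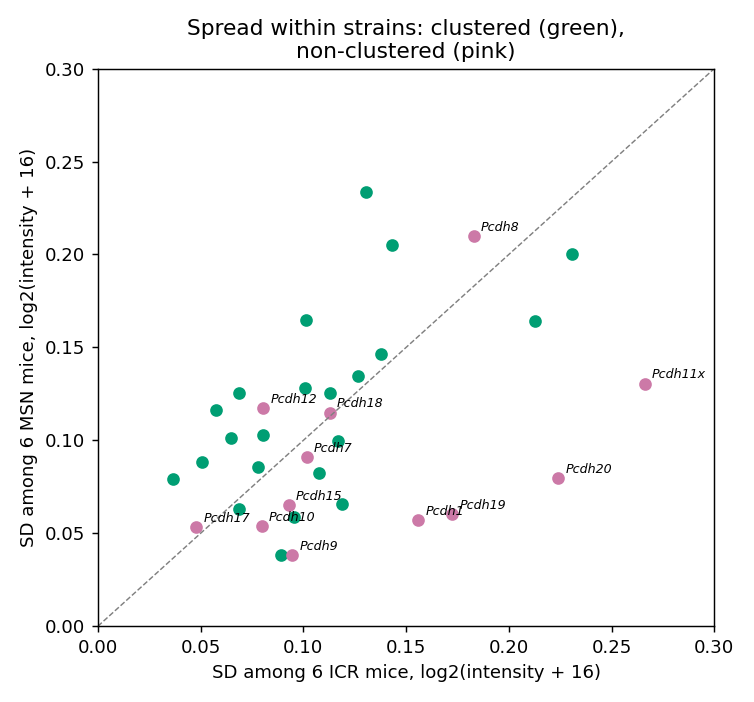
SD of log2(intensity + 16) among 6 MSN mice (vertical axis) against that among 6 ICR mice (horizontal axis), with 22 beta genes in green, 12 non-clustered genes in pink and labelled, and a dashed line of equal SDs. Of the beta genes 14 lie above the line, and of the non-clustered genes 4 do.

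The 22 beta genes, Pcdhb1 to Pcdhb22, lie side by side on chromosome 18, which also holds Pcdh1 and Pcdh12. They gave 5 genes at an unadjusted p under 0.05 (22.7%, against 12.7% of all clusters), and none of these passed the test. Of the 5, 1 was higher in MSN (5.18% of all clusters) and 4 were lower (7.5% of all clusters). Their log2 fold changes ran between -0.15 and 0.22, and no beta gene separated the strains. Pcdhb2 had the highest value, with intensities of 346, 422 and 526 (lowest, median and highest) in MSN mice, against 287, 393 and 416 in ICR mice. MSN 1 was the high mouse and the strains overlapped, with a log2 fold change of 0.22 (SE 0.108, adjusted p = 0.418) that was 0.16 without MSN replicate 1. Pcdhb4 had 552, 600 and 670 in MSN mice, against 478, 560 and 602 in ICR mice. Of its MSN mice 3 were above all ICR mice, and MSN over ICR was 0.13 (log2, SE 0.0589, unadjusted p = 0.0397, adjusted p = 0.362). Pcdhb3 had 529, 590 and 671 in MSN mice, against 487, 567 and 583 in ICR mice, which is 0.11 for MSN over ICR (log2, SE 0.0637, adjusted p = 0.523) and 0.07 without MSN replicate 1.

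At the low end stood Pcdhb18, with 549, 658 and 711 (lowest, median and highest) in MSN mice, against 632, 732 and 763 in ICR mice. The ranges overlapped, although the ICR median lay above every MSN mouse. Its log2 fold change was -0.15 (SE 0.0618, unadjusted p = 0.0287, adjusted p = 0.320). Pcdhb16 had 497, 537 and 559 in MSN mice, against 535, 584 and 644 in ICR mice, which is -0.12 for MSN over ICR (log2, SE 0.0466, adjusted p = 0.283). Pcdhb1 was dim, at 85.1, 85.3 and 92.2 in MSN mice, against 85.1, 96.9 and 105 in ICR mice. Apart from MSN 2 the MSN mice were nearly equal, at 85.1 to 86.0, and ICR 6 also stood at 85.1, while 5 of 6 ICR mice were above 91. Whether these nearly equal values lie at the floor of the signal was not tested, which limits every reading of this gene. The log2 fold change was -0.12 (SE 0.0423, adjusted p = 0.228). Pcdhb17, named after its values were seen as the remaining beta gene at an unadjusted p under 0.05, stood at -0.11 for MSN over ICR (log2, adjusted p = 0.315). Pcdhb15, with Pcdhb18 and Pcdhb4 among the 3 brightest, had 541, 623 and 667 in MSN mice, against 565, 601 and 643 in ICR mice, which is 0.03 for MSN over ICR (log2), and 0.01 to 0.07 with any array left out.

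Read along the chromosome, 12 of the 21 pairs of neighbouring beta genes had fold changes of the same sign. Pcdhb1, the first, was at -0.12. All 4 genes of Pcdhb2 to Pcdhb5 were above 0 (0.05 to 0.22). Of the 10 genes Pcdhb6 to Pcdhb15, 4 were above and 6 below 0 (-0.09 to 0.03). All 3 genes of Pcdhb16 to Pcdhb18 were below 0 (-0.15 to -0.11), and Pcdhb19 to Pcdhb22 lay between 0.00 and 0.02. These stretches were drawn after the values were seen and carry no test. Beta genes are similar in sequence, and whether probes of a gene also bind RNA of its neighbours was not tested. The 20 genes flanking the whole locus, 10 on each side, had a median log2 fold change of 0.00 with 0 past the test by limma and 2 at an unadjusted p under 0.05 (10%, against 12.7% of all clusters). These were Vaultrc5, a vault RNA gene, at 0.49 (adjusted p = 0.0521) and Hars2, a mitochondrial histidine tRNA ligase, at -0.09 (adjusted p = 0.345).

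The alpha genes were measured only by the shared cluster of 14 genes, which include the C-type members Pcdhac1 and Pcdhac2. Its intensities were 955, 946, 984, 904, 968 and 949 in MSN mice 1 to 6, against 987, 987, 941, 946, 932 and 990 in ICR mice 1 to 6. The strains overlapped, with means of 951 ± 26.9 in MSN mice and 964 ± 26.9 in ICR mice (SD, n = 6 each). The log2 fold change was -0.02 (95% interval -0.09 to 0.05, adjusted p = 0.850). A signal summed over 14 genes does not show a change in which of them is used.

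Mice of the same strain differed in the beta genes together. MSN 1 was above the MSN mean in 21 of 22 beta genes and the highest MSN mouse in 16, with an average deviation of 0.16 on the log2 scale. MSN 5 was above the mean in 2 of 22 and the lowest MSN mouse in 15, with an average deviation of -0.12. In the 12 non-clustered genes the same 2 mice averaged -0.04 and 0.07, and MSN 5 was the highest MSN mouse in 6 of them, Pcdh7, Pcdh8, Pcdh10, Pcdh11x, Pcdh15 and Pcdh17. Among ICR mice, ICR 4 was above the ICR mean in 19 of 22 beta genes, by 0.08 on average, and the others averaged between -0.05 and 0.05. Over all 19939 genes the average deviation was 0.00 in MSN 1 and -0.03 in MSN 5. MSN 1 was above the MSN mean in 10691 of them and the highest MSN mouse in 4231. MSN 5 was above that mean in 7631, the lowest MSN mouse in 5948 and the highest in 3245. ICR 4 was above the ICR mean in 10032. Of the marker lists, the 8 neuron markers averaged 0.03 in MSN 1 and -0.01 in MSN 5, and the 8 dentate and CA markers 0.07 in MSN 1, -0.11 in MSN 5 and 0.12 in ICR 4. The beta genes and the dentate and CA markers deviated in the same direction in 7 of 12 mice. Directions were counted for this list only and carry no test, so the count does not show a match particular to these markers. The directions were opposite in MSN 2 (beta genes 0.002, markers -0.02), MSN 4 (-0.04 and 0.001) and MSN 6 (-0.03 and 0.01). They were also opposite in ICR 5 (beta genes -0.01, markers 0.11) and ICR 6 (-0.04 and 0.0002). In ICR 2 the dentate and CA markers averaged 0.13 and the beta genes 0.05. In ICR 3 the markers averaged -0.27 and the beta genes -0.03. The 7 microglia markers averaged 0.11 in MSN 1 and 0.06 in MSN 5, and the 6 meninges markers -0.21 and 0.16. The part of these markers' tissue in the beta pattern was not tested.

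**Figure D4:**
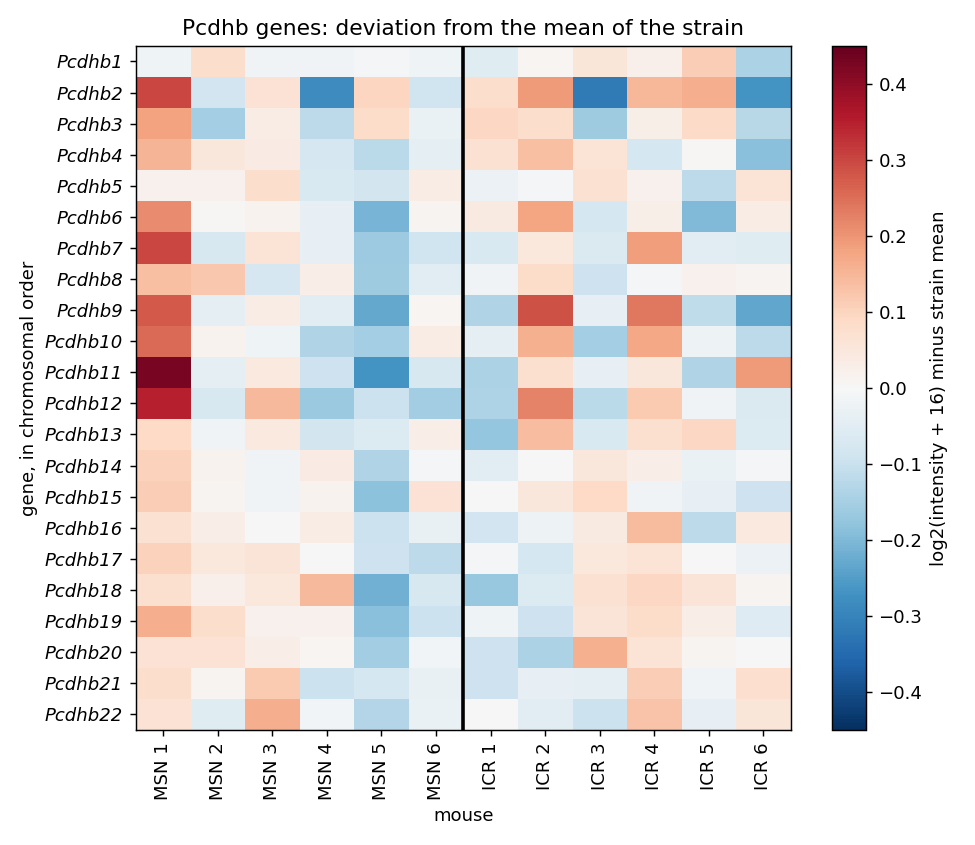
Deviation of log2(intensity + 16) from the mean of the strain (colour) for the 22 beta genes in chromosomal order (rows) in the 6 MSN mice (left of the line) and the 6 ICR mice (right). The column of MSN 1 is red in 21 of 22 genes and that of MSN 5 in 2 of 22.

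As a description of this shared variation, the deviations of each pair of beta genes were correlated over the 12 mice, both genes of a pair being read from the same arrays and dissections. The median Pearson r was 0.43 over 231 beta pairs, of which 37.7% were over 0.5, against 0.13 over 66 non-clustered pairs and 0.02 over pairs of all genes, of which 8.97% were over 0.5. Pairs of a non-clustered and a beta gene had a median r of -0.14. For the 21 pairs of beta genes next to each other the median was 0.64 and all 21 were above 0, and for the other 210 beta pairs it was 0.40. The closest pairs were Pcdhb17 with Pcdhb19 (r = 0.93) and Pcdhb2 with Pcdhb3 (r = 0.93), and Pcdhb1, the dim first gene, had the lowest median with the others (0.10). Of the 22 genes, 10 were most like a gene next to them. Within the 6 MSN mice the median over beta pairs was 0.66 and within the 6 ICR mice 0.21. In MSN mice 67.5% of beta pairs were over 0.5, against 19.5% of all gene pairs. In ICR mice 22.5% were, against 17.7% of all gene pairs. Without MSN 1 the median over beta pairs was 0.30 and without MSN 5 it was 0.32, so part of the likeness rested on each of these 2 mice.

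**Figure D5:**
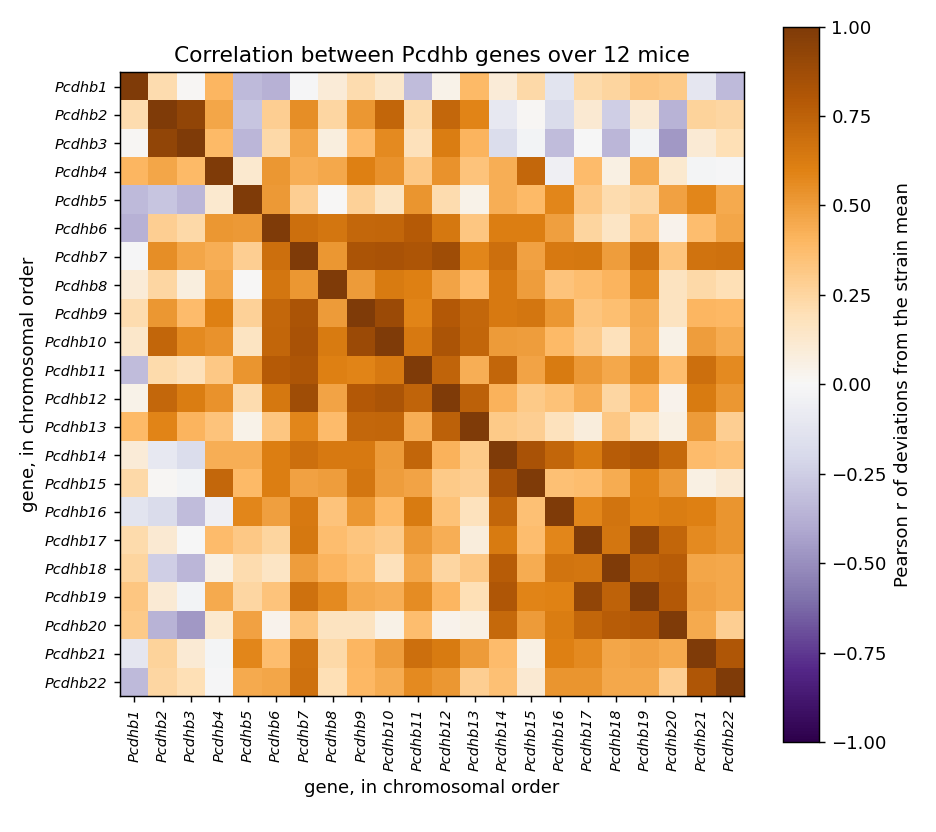
Pearson r between beta genes over 12 mice (colour), computed on deviations from the strain mean, with both axes in chromosomal order. Most of the 231 pairs are above 0 (208 pairs), and the pairs beside the diagonal are high, with a median r of 0.64.

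The genes whose mouse-to-mouse pattern was most like that of Pcdh17, out of 19938 compared over the 12 mice, were Csnk1g1 (r = 0.91), Zc3hav1l (0.88), Ipmk (0.87), Ptcd1 (0.86) and Pde3a (0.86). They are the top of 19938 correlations over only 12 mice and carry no test, so they do not show a link with Pcdh17.

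Genes that act on clustered promoters were read beside their targets, namely CTCF and cohesin, which loop promoters to enhancers, and the enzymes and cofactors of DNA methylation and silencing. Of 22 measured, 21 had a log2 fold change below 0, as did 54.7% of all genes, with a median of -0.05. The test was passed by 1 of them (0.777% of all clusters), and 3 had an unadjusted p under 0.05 (13.6%, against 12.7% of all clusters). Their summed intensity ran between 21445 and 22380 in MSN mice and between 22339 and 23207 in ICR mice. Dnmt1, the maintenance DNA methyltransferase, averaged 750 ± 30.1 in MSN mice and 853 ± 36.8 in ICR mice (SD, n = 6 each). Its intensity was lower in MSN, at a log2 fold change of -0.18 (SE 0.0388, limma adjusted p = 0.0474), with an exact two-sided permutation p of 0.00433. The call is narrow, since the adjusted p was over 0.05 when any of 10 of the 12 arrays was left out and reached 0.196 with arrays scaled to the same median.

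Partners that carry protocadherin signals or cleave the proteins gave 0 of 21 genes past the test by limma and 4 at an unadjusted p under 0.05 (19.05%, against 12.7% of all clusters), 3 lower and 1 higher in MSN. Marcks, an actin-binding kinase substrate downstream of clustered protocadherins, was at a log2 fold change of -0.10 (adjusted p = 0.286). Rac1, a small GTPase of the actin skeleton, was at -0.09 (adjusted p = 0.318), and Adam10, the protease that sheds their extracellular part, at -0.07 (adjusted p = 0.380). Nckap1, of the WAVE complex that binds clustered protocadherin tails, was the higher gene at 0.12 (adjusted p = 0.389) and was named after its values were seen. Among 20 classical and related cadherins 0 passed and 1 (5%) had an unadjusted p under 0.05, Cdh19 at 0.23 (adjusted p = 0.228). Among 20 further members of the superfamily 0 passed and 2 (10%) had an unadjusted p under 0.05, Celsr3, a cadherin of axon guidance, at -0.14 (adjusted p = 0.301) and Cdh23, the tip link partner of Pcdh15, at -0.10 (adjusted p = 0.331). These lists had median log2 fold changes of -0.03, -0.01 and -0.01.

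The tissue label was checked with marker lists. All 8 dentate and CA markers and all 8 neuron markers were measured, at means between 441 and 2634 and between 2148 and 11989. Between strains, Bok, a marker of the dentate and CA list, rose in MSN by a log2 fold change of 0.36 (adjusted p = 0.0305), and Pdgfra, of oligodendrocyte precursors, rose by 0.26 (adjusted p = 0.0184). In the other lists 0 genes passed the test by limma. At an unadjusted p under 0.05, against 12.7% of all clusters, there were 4 of 7 astrocyte markers (57.1%). Of these, 3 were lower in MSN (Gfap at -0.30, Aqp4 at -0.23 and Slc1a2 at -0.11) and Aldh1l1 was higher at 0.19. There were also 2 of 8 dentate and CA markers (25%, Bok and Wfs1 at 0.17). Oligodendrocyte markers gave 2 of 6 (33.3%), both higher in MSN (Mbp at 0.09 and Mobp at 0.13). Further counts were 1 of 5 oligodendrocyte precursor (20%), 1 of 8 neuron (12.5%) and 1 of 7 microglia markers (14.3%). None of the 7 endothelial and pericyte, 7 choroid plexus and ependyma, 6 meninges and 5 thalamus markers reached it. The median log2 fold change was 0.10 for the dentate and CA markers (7 of 8 above 0). For the choroid plexus and ependyma markers it was 0.30 (all 7 above 0). Oligodendrocyte markers had a median of 0.07 (all 6 above 0) and oligodendrocyte precursor markers 0.08 (all 5 above 0). Neuron, microglia, and endothelial and pericyte markers had medians of -0.03, 0.04 and 0.06. Astrocyte, meninges and thalamus markers had medians of -0.09, -0.09 and -0.10. Summed choroid plexus and ependyma markers ran between 9191 and 22066 in MSN mice and between 7634 and 21996 in ICR mice. Summed thalamus markers ran between 3191 and 4474 in MSN mice and between 3535 and 5639 in ICR mice. The part of these cells in the protocadherin values was not tested. Array medians lay between 373 and 389, and arrays correlated at r = 0.989 to 0.995 within strains and 0.988 to 0.993 between them.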

How the data were processed

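Hippocampal RNA of 6 MSN and 6 ICR mice was hybridised to whole-transcript mouse gene arrays. The authors summarised probes to transcript clusters with PLIER in Affymetrix Power Tools 1.12.0, and the deposited values are normalised linear intensities with no depth or detection call. No scan date or batch was given for the arrays. The genome build of the array annotation is not given in the sources used here, so chromosome order came from RefSeq (GRCm38.p6). All 12 columns were mapped to a mouse by title.

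From the deposited intensities, log2(intensity + 16) was computed and 23410 clusters with a gene were fitted with lmFit and eBayes (limma 3.58.1, R 4.3.3) with strain as the only term. P-values were adjusted over all 23410 clusters by the Benjamini-Hochberg method, intervals are 95%, and single genes were also given an exact two-sided permutation test. The fit was tested on simulated data. The 12 arrays limit the precision. Genes named were every non-clustered member, any member past the test, the 3 highest, 3 lowest and 3 brightest beta genes and, of each list, those past the test or up to 3 with the smallest p. The lists were promoter choice and silencing, partners, other cadherins and cell type markers. Members and lists were chosen with earlier results of these data known. Alternatives changed the pseudocount, transformation, normalization, filter, variance model, array weights, cluster chosen per gene, a replicate block and the arrays included.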

Additional observations from a re-analysis of the deposited data

Results flagged for a closer look

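Each strain's 6 values of the 34 protocadherin genes were examined for a mouse far from the others, as the gap to its nearest neighbour over the whole range (Dixon's ratio). Of 68 such groups 3 were past the 95% critical value for 6 samples (4.41%), and chance gives about 1 in 20. In Pcdh8, MSN 5 stood at 872 and the next MSN mouse at 664, a ratio of 0.658. In Pcdhb1, MSN 2 stood at 92.2 and the next at 86.0, a ratio of 0.877 in a dim gene whose other MSN values were nearly equal. In Pcdhb20, MSN 5 was the lowest at 409 and the next at 454, a ratio of 0.655.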

How the results depend on the processing

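Of 498 values of 20 protocadherin genes under 25 alternatives, 474 kept their direction and side of the threshold. The alternatives that took the dimmer cluster or counted in multi-gene clusters reused the main fit, so most of their values could not change. Pcdh17 passed, as the only called member (count 1), with untransformed intensities (adjusted p = 0.0312), pseudocount 64 (0.0339), quantile normalization (0.0375), trended and robust variances (0.0252), only clusters above the median mean (0.0213) and array weights (0.0275). Leaving out an array gave 0 to 1 called members, an adjusted p of 0.0323 to 0.118 for Pcdh17 and a log2 fold change of 0.15 to 0.18. Log2 fold changes near 0 changed sign, for Pcdh19 to -0.00716 with untransformed intensities and for Pcdh1 to -0.00637 with array weights. With an array left out they ran from -0.0119 to 0.0585 in Pcdh18, -0.0474 to 0.0410 in Pcdh1 and -0.0572 to 0.0364 in Pcdh19. Over all clusters, 279 were called with pseudocount 64, 315 with array weights and 91 to 210 with an array left out, against 182. The number higher in MSN was 131 of 240 with quantile normalization and 115 of 204 with equal array medians, against 71 of 182, while these scalings moved the median log2 fold change from -0.01 to 0.01 and 0.02. Dnmt1 lost its call with pseudocount 1 (0.0529), quantile normalization (0.0576), equal medians (0.196), all clusters tested (0.0711) and 10 of 12 arrays left out (range 0.0200 to 0.119). The cause of these changes was not tested.

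Replicate numbers were not used as pairs in the main fit. Same-numbered mice correlated at r between -0.14 and 0.12, and 1 of 6 MSN mice was closest to its own number. The titles do not say what the numbers stand for, so these values cannot exclude a processing step shared by same-numbered mice. With the replicate block 42 clusters were called, and the adjusted p was 0.129 for Pcdh17 and 0.116 for Dnmt1. The median r of the beta genes, with each array left out after the data were seen, ran from 0.30 to 0.47. Intensities carry no detection call, so the dim Pcdhb1 has no known background.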
